A study of Mus musculus with 24 samples.

Results

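Diaphragm muscle of WT mice was compared between day 7 and day 2 after injection of Trichinella spiralis newborn larvae, using the 3 arrays labelled WT_7dpi and the 3 labelled WT_2dpi, which are 6 of the 24 arrays of the series. Each array held RNA of 1 whole diaphragm, read on an Illumina MouseRef-8 v2.0 BeadChip. The mice were C57BL/6, genotype WT, bought from a supplier, and each infected mouse received 25000 newborn larvae by retro-orbital injection, so that all larvae arrived at once (dpi, days post injection). The series has 2 naive, 3 2 dpi and 3 7 dpi arrays of each of 3 genotypes: WT, PHIL (a transgenic line that lacks eosinophils, the granulocytes typical of worm infection) and Rag1-/- (no T or B cells), all on a C57BL/6 background. PHIL and Rag1-/- mice were bred in-house, unlike the WT mice. Naive WT arrays and the infected PHIL and Rag1-/- arrays are used below only as points of reference. Age, sex and time of day of collection are not given in the sources used here, and the p-values below measure the spread between these mice alone. The diaphragm was taken whole, so for every gene below fewer or more cells of a type and less or more RNA per cell cannot be told apart.

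T. spiralis is a parasitic nematode whose newborn larvae leave the blood, enter striated muscle fibres and stay there. The invaded fibre loses its contractile apparatus and becomes a nurse cell, which comes to lie within a collagen capsule. Injured muscle first raises inflammatory genes, among them those that interferons switch on in almost any cell, and later raises genes of fibre regrowth and of connective tissue. Which of these programmes were still on at 7 dpi, which had fallen back and which had newly appeared is what the comparison of the 2 times describes.

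Levels are log2 normalised signals, and a level is compared only with that of the same probe on other arrays. A gene counted as called when the limma fit gave an adjusted p (Benjamini-Hochberg over all 8226 genes tested) of at most 0.05 and a change of at least 1.5-fold. The 14 skeletal muscle fibre markers that were tested were each detected. The level of a list on an array is given as the log2 of the mean signal over its genes, which the brightest probes set, and that of the muscle markers was 14.22 to 14.35 on the 6 arrays. Arrays of the same time correlated at 0.9876 to 0.9926 and arrays of different times at 0.9515 to 0.9627, so the 2 times stood further apart than any replicates, and no 2 arrays held the same values. Detected probes numbered 9735 to 10082 at 2 dpi and 10090 to 10594 at 7 dpi. Median raw signals were 112.5 to 114.6 at 2 dpi and 121.2 to 131.5 at 7 dpi, so signal level of the arrays went with time. How much of the changes below goes with this signal level was not tested. The Y-linked gene Eif2s3y was detected on 1 array of 2 dpi (replicate 1) and on 2 arrays of 7 dpi (replicates 1 and 3), so male and female mice were spread over both times, and a fit with Eif2s3y as a covariate kept 1428 of the 1536 calls made below.

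From 2 to 7 dpi, 874 genes rose (10.6% of the 8226 tested) and 662 fell (8.05%), of which 344 and 186 changed by at least 2-fold. Scaling the arrays to a common median in place of quantile normalisation gave 1098 higher and 516 lower, a share of 68% higher against 56.9%. Against naive muscle, the 2 dpi arrays had 1076 genes higher (13.1%) and 844 lower (10.3%), and the 7 dpi arrays 1341 higher (16.3%) and 969 lower (11.8%). Both of these comparisons share arrays with the main one, so their values are only set beside it. Of the genes that rose, 227 were detected on no 2 dpi array, and of those that fell, 78 were detected on no 7 dpi array. For such a gene the text gives a lower bound of the fold ("at least"), measured against the weakest signal still detected on each array.

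**Figure D1:**
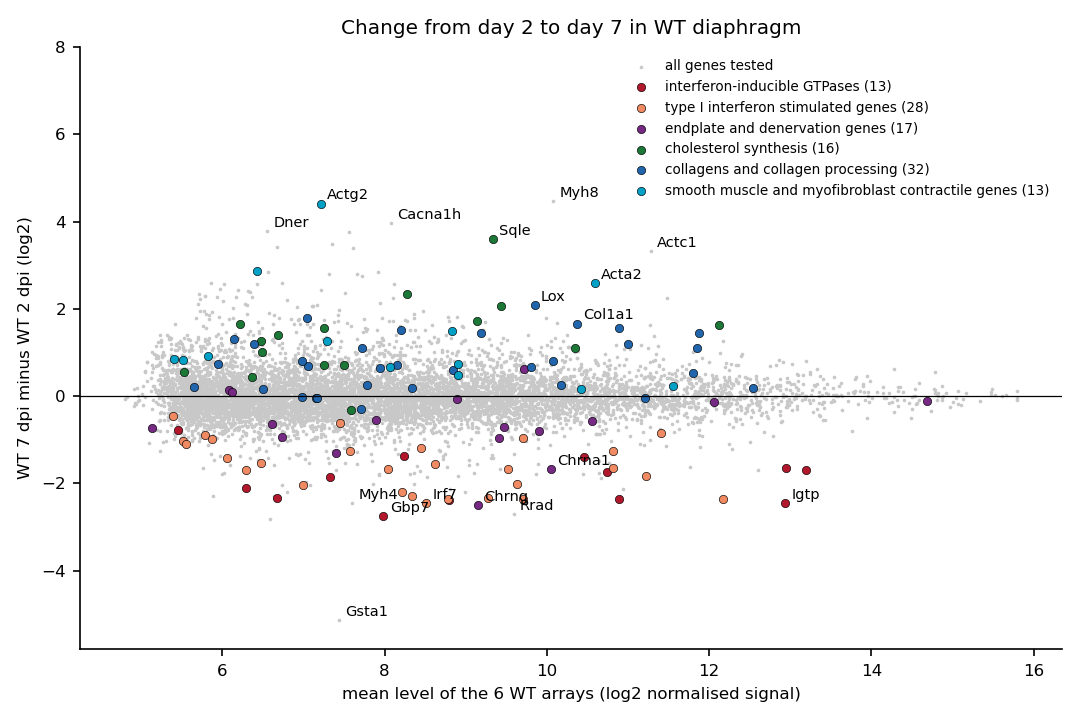
Change from 2 to 7 dpi (log2, vertical axis) against the mean level of the 6 WT arrays (log2 normalised signal, horizontal axis), 1 point per gene tested, with members of 6 gene lists in colour. All members of both interferon lists lie below 0 and all smooth muscle members above it, with Gsta1 lowest at -5.14 and Myh8 highest at 4.47.

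The group that fell most was the interferon-inducible GTPases, large and small GTP-binding proteins (Gbp and Irg families) with parts in the defence of cells against intracellular parasites and bacteria. All 13 members tested fell, with a median change of -1.86 against -0.02 over all genes. Igtp (also called Irgm3) had levels of 13.85, 14.38 and 14.24 at 2 dpi, 11.57, 12.54 and 11 at 7 dpi, and 8.78 and 8.73 in naive muscle. The times did not overlap, and every 7 dpi array still lay above both naive arrays. Igtp fell 5.48-fold (log2 change -2.45, SE 0.31, adjusted p = 4.39e-05) and remained 2.95 above naive.

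Gbp7 came closer to its starting level. Its levels were 8.63, 9.68 and 9.77 at 2 dpi, 6.51, 6.96 and 6.37 at 7 dpi, and 5.92 and 6.04 in naive muscle, a fall of 6.72-fold (SE 0.30 log2, adjusted p = 1.26e-05). Gbp10 fell 5.24-fold (SE 0.38 log2, adjusted p = 0.000291) and Irgm1 5.13-fold (SE 0.31 log2, adjusted p = 5.79e-05). Gbp2 and Irgm2 fell less, by 1.70 and 1.64 on the log2 scale, from levels of 13.91 to 14.19 and 13.64 to 13.89. The 13 genes lay a median of 3.38 above naive at 2 dpi, when all 13 were called higher, and 1.44 at 7 dpi, when 9 were. Members of the Gbp family resemble each other in sequence, and whether each probe tells them apart was not tested.

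Within the 7 dpi arrays, replicate 2 had the highest levels of this group. The log2 of the mean signal over the 13 genes, set by the brightest probes such as those of Igtp, Gbp2 and Irgm2, ran from 9.73 to 11.02 across the 3 arrays, against 12.02 to 12.35 at 2 dpi and 8.22 on the naive arrays. With each array left out in turn, 12 or 13 of the 13 were called. The range of the 7 dpi arrays was wider than that of the 2 dpi arrays and did not reach it.

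The promoters of Gbp7 and Igtp are printed here because their called falls were the largest of the list. Their starts carry letters known from promoters that respond to interferon, the GAS motif (TTCNNNGAA) and the core of the ISRE (GAAANNGAA). Each sequence is the 250 bases before the RefSeq gene start (mouse build GRCm38.p6), written 5′ to 3′ on the gene's strand, with matches to either motif, on either strand, in capitals. Gbp7 (chr3:142530086-142530335, + strand) has GAS matches that start 106 and 87 bases before the gene start and an ISRE core match at 52, and Igtp (chr11:58199306-58199555, + strand) has a GAS match at 45 and an ISRE core match at 34.
Gbp7: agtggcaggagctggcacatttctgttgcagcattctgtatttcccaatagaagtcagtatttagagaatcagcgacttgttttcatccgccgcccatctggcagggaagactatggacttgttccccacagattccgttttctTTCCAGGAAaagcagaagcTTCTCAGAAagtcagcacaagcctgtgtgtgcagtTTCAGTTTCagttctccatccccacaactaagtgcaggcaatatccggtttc
Igtp: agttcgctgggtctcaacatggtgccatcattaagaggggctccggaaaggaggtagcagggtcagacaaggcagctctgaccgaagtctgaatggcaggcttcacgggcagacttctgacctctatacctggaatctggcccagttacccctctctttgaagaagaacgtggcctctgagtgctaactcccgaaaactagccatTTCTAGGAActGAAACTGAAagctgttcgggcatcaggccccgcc

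RefSeq promoters were found for 10 of the 13 GTPase genes. Of their 11 promoters, 9 (81.8%) held an ISRE core and 5 (45.5%) a GAS, against 6.29% and 5.98% of the 8697 promoters of all genes tested. The letters TTTGAA, the CHR motif of cell cycle genes, stood in 5 of the 11 too (45.5%), against 10.2% for all genes tested. The GAS and CHR shares of this small set were thus equal, while their shares over all genes tested differ (5.98% and 10.2%). No share was tested. In the type I interferon stimulated genes described next, 26.1% of 23 promoters held an ISRE core and 17.4% a GAS. A match is a description of the letters, not of binding, and a promoter without one only lacks these letters in this window.

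Type I interferon stimulated genes encode antiviral proteins and the factors that induce them, and 27 of the 28 tested fell, with a median change of -1.60. Isg15, a ubiquitin-like protein joined to other proteins, had levels of 9.70, 10.28 and 9.92 at 2 dpi, 7.50, 7.94 and 7.37 at 7 dpi, and 6.61 and 6.69 in naive muscle. Every 2 dpi array lay above every 7 dpi array, and those above the naive arrays. The fall was 5.15-fold (SE 0.25 log2, adjusted p = 8.47e-06).

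Irf7, the transcription factor that amplifies type I interferon responses, fell 5.51-fold (SE 0.33 log2, adjusted p = 6.81e-05) to 0.56 above naive. Rsad2, the antiviral enzyme viperin, fell 5.10-fold (SE 0.19 log2, adjusted p = 9.39e-07) and was level with naive at 7 dpi (-0.17, not called). Ifit3, an antiviral protein of the IFIT family, and Oasl2, an oligoadenylate synthetase-like protein, fell 5.10-fold and 5.05-fold and remained 1.13 and 1.12 above naive. Only Mx1, a dynamin-like antiviral GTPase, did not pass the test (-0.46, SE 0.28, adjusted p = 0.212), and it was detected on 2 of the 6 arrays. Without 2 dpi replicate 1 it was called too (-0.80, adjusted p = 0.022). The list's median against naive was 1.99 at 2 dpi, with 26 genes higher, and 0.42 at 7 dpi, with 8 higher. Set beside the GTPases, a smaller share of these genes was still called above naive at 7 dpi (8 of 28 against 9 of 13), a difference between the lists that was not tested.

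Of 18 genes of interferon signalling, 5 fell and 1 rose (median -0.15). The fallers included Stat2 (2.81-fold) and Irf9 (2.49-fold), transcription factors of the type I interferon response, the induced factor Batf2 (3.22-fold) and Irf1 (2.23-fold, SE 0.25 log2, adjusted p = 0.00286), a factor that interferons induce. Socs3, an inhibitor of cytokine receptors that signal through STAT3, rose 2.08-fold (SE 0.18 log2, adjusted p = 0.000574): its levels were 7.94, 8.37 and 8.22 at 2 dpi, 8.97, 9.6 and 9.12 at 7 dpi, and 8.50 and 8.09 in naive muscle. Ifng, the gene of interferon gamma (named here after its values were seen), was detected on none of the 8 WT arrays.

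**Figure D2:**
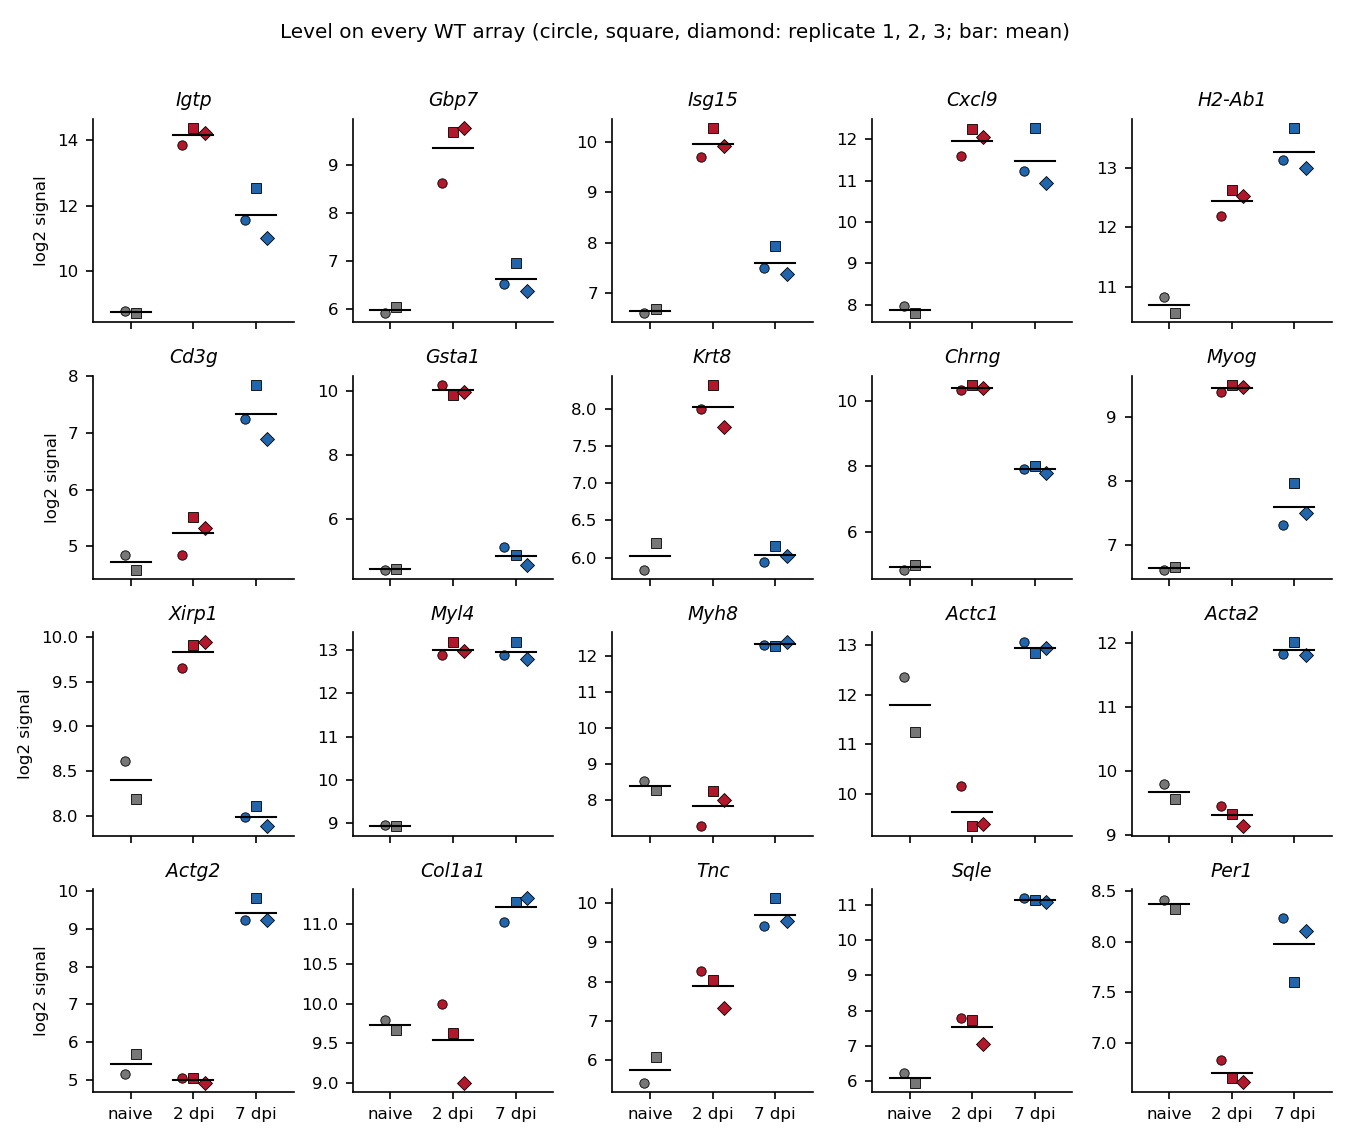
Level of 20 genes (log2 normalised signal, vertical axis) on every WT array, grouped as naive, 2 dpi and 7 dpi, with a bar at each mean. Igtp, Gbp7, Isg15, Gsta1, Krt8, Chrng, Myog and Xirp1 peak at 2 dpi. Myh8, Actc1, Acta2, Actg2, Col1a1, Sqle and Cd3g are highest at 7 dpi, and Myl4 is high at both times.

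Antigen presentation split by class. MHC class I presents fragments of a cell's own proteins, and 9 of 19 genes of that route fell and none rose (median -0.56). The largest falls were those of the non-classical class I gene H2-T23 (4.35-fold, adjusted p = 3.85e-05), the immunoproteasome subunits Psmb9 (3.70-fold) and Psmb10 (3.08-fold), and the peptide editor Tapbpl (3.03-fold). B2m, the shared light chain, went from 14.51, 14.84 and 14.88 to 14.11, 14.44 and 14.15, a change of -0.51 that missed the fold threshold (-0.63 and past it without 2 dpi replicate 1, -0.62 without 7 dpi replicate 2), and stayed 1.43 above naive. At 7 dpi 14 of the 19 genes were still above naive.

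MHC class II, which presents taken-up antigen to helper T cells, went the other way: 4 of 11 genes rose and none fell (median 0.24). H2-Ab1, a class II chain, had levels of 12.19, 12.64 and 12.53 at 2 dpi, 13.14, 13.68 and 13 at 7 dpi, and 10.83 and 10.56 in naive muscle, so the 3 groups did not overlap. It rose 1.77-fold (SE 0.16 log2, adjusted p = 0.00113). Cd74, the invariant chain, rose 1.96-fold (SE 0.12 log2, adjusted p = 4.55e-05) and H2-Eb1 1.82-fold (SE 0.15 log2, adjusted p = 0.000572). Against naive, 10 of the 11 were higher at 2 dpi and 10 at 7 dpi, with medians of 1.75 and 2.31.

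Chemokines, the proteins that draw leukocytes, did not move as one group. Of 22 tested, 3 were called higher (13.6%) and 2 lower (9.09%), near the 10.6% and 8.05% of all genes (median -0.06). The count of lower genes was 1 without 2 dpi replicate 2 or 3 or 7 dpi replicate 3, 0 without 7 dpi replicate 1 and 7 without 7 dpi replicate 2. Cxcl9, which draws activated T cells, had levels of 11.59, 12.25 and 12.06 at 2 dpi and 11.23, 12.27 and 10.95 at 7 dpi, against 7.96 and 7.81 in naive muscle. Those times overlapped (change -0.49, SE 0.32, adjusted p = 0.256), and Cxcl9 was still 3.59 above naive at 7 dpi. The overlap rests on 7 dpi replicate 2, without which the change was -0.88 (adjusted p = 0.0295). Cxcl10, a ligand of the same receptor, went from 9.79, 9.75 and 9.20 to 8.16, 9.32 and 8.01, a change of -1.09 (SE 0.32, adjusted p = 0.0164). That call was lost when either 2 dpi replicate 1 or 2 or 7 dpi replicate 1 or 3 was left out, with changes of -0.98, -1, -0.92 and -0.84.

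Cx3cl1, the membrane-bound chemokine fractalkine, rose 1.89-fold (SE 0.25 log2, adjusted p = 0.011), from 6.42, 6.94 and 6.81 to 7.69, 7.83 and 7.41. Ccl17, which draws type 2 helper T cells, was detected on no 2 dpi array and 2 of the 7 dpi arrays (adjusted p = 8.53e-05, at least 1.1-fold).

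Some other inflammatory genes fell as well, against 8.05% of all genes that fell and 10.6% that rose. Of 10 complement genes 5 fell, among them the C3 convertase subunit C2 (2.82-fold, adjusted p = 4.05e-05), which was 0.03 below naive at 7 dpi. C1qb and C1qc, chains of the C1q recognition complex made by macrophages, were not called (0.25 and 0.35) and stayed 2.18 and 2.20 above naive. Lcn2, an iron-sequestering acute phase protein, fell 3.10-fold (SE 0.29 log2, adjusted p = 0.00069). Of the 9 acute phase and inflammatory genes in its list 3 fell (33.3%), none rose and 6 were not called. With 1 array left out, 1 to 2 of them fell. The immune brakes Cd274 (PD-L1) and Ido1, a tryptophan-degrading enzyme, fell 4.39-fold and 4.06-fold (adjusted p = 0.000201 and 0.000317). In their list of 9 genes 3 fell (33.3%), 1 rose (11.1%) and 5 were not called.

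Gsta1, a glutathione S-transferase that conjugates reactive compounds, had the largest fitted change of all genes (log2 -5.14). That rank rests on 7 dpi values below detection. It was at 10.18, 9.87 and 9.97 at 2 dpi, at 5.15, 4.88 and 4.57 at 7 dpi, and at 4.44 and 4.45 in naive muscle. Gsta1 was detected on the 3 arrays of 2 dpi and on no other WT array, and fell at least 19.6-fold (adjusted p = 4.28e-11). Its near-identical relative Gsta2, named after its values were seen, showed the same order of levels, falling at least 2.47-fold, and whether the 2 probes tell the copies apart was not tested. Aif1l, an actin-bundling protein, fell 4.95-fold from 12.13, 12.08 and 12.01 to 9.84, 9.90 and 9.56 (adjusted p = 5.91e-09), and was still 2.42 above naive. Rrad, a small GTPase that inhibits calcium channels, fell 6.51-fold from 11.15, 10.95 and 10.73 to 7.75, 8.94 and 8.04 (SE 0.23 log2, adjusted p = 1.36e-06).

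Markers of the cells in the tissue moved in different directions. Of 25 monocyte and macrophage markers, 23 were above naive at both times, against 13.1% of all genes at 2 dpi and 16.3% at 7 dpi. From 2 to 7 dpi 2 of the markers rose (8%) and 6 fell (24%), against 10.6% and 8.05% of all genes (median -0.10). Without 7 dpi replicate 2, 11 of them fell and 1 rose, and without 2 dpi replicate 1, 1 rose. The log2 of the mean signal over the 25 genes, set by the brightest probes, overlapped between the times, at 9.42 to 9.83 at 2 dpi and 9.27 to 9.87 at 7 dpi against 7.35 to 7.65 in naive muscle. Plac8, a gene of myeloid cells, fell 3.47-fold (adjusted p = 0.000845) and Fcgr1, the high-affinity IgG receptor, 1.83-fold (adjusted p = 0.00157).

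Some genes linked to macrophages of the later phase of repair rose. Gpnmb, a lysosomal glycoprotein of phagocytes, went from 10.48, 10.68 and 10.50 to 11.48, 11.48 and 11.25, from a naive level of 7.12 and 7.6 (1.8-fold, SE 0.15 log2, adjusted p = 0.000681). Mrc1, the mannose receptor, rose 1.84-fold (SE 0.12 log2, adjusted p = 9.59e-05) and the tetraspanin Cd9 1.91-fold (SE 0.11 log2, adjusted p = 2.27e-05). The lists they belong to were mixed: 3 of 15 genes of repair and lysosome-rich macrophages rose (20%) and none fell. Of 11 genes of alternative activation 1 rose, Mrc1, and 1 fell (9.09% each), near the 10.6% and 8.05% of all genes. Lgmn, the other riser of the repair list, lost its call without 2 dpi replicate 3 (0.56) or 7 dpi replicate 2 (0.53). Of the first list 1 fell without 2 dpi replicate 1 or 3 and 2 without 7 dpi replicate 2, and of the second 2 fell without 2 dpi replicate 1 and 2 rose without 7 dpi replicate 1 or 3. The faller in the second list was Chil3, a chitinase-like lectin, at 3.42-fold (SE 0.46 log2, adjusted p = 0.00781), detected on 1 of the 3 arrays at 7 dpi.

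T cell markers were higher at 7 dpi. Of 16 T and NK cell markers tested, 4 were above naive at 2 dpi and 9 at 7 dpi. Between the times 8 rose and none fell (1 fell without 2 dpi replicate 1), with a median of 0.66, or 0.31 with genes undetected at one time set at their bound. Cd8b1, the beta chain of CD8, was detected on no 2 dpi array (5.51, 5.75 and 5.84) and on every 7 dpi array (7.93, 7.96 and 7.78), a rise of at least 3.95-fold (adjusted p = 1.81e-05). Cd3g, a chain of the T cell receptor complex, rose at least 2.68-fold (adjusted p = 1.55e-05), and Cd3d went from 5.19, 5.80 and 6.15, detected on 1 of the 3 arrays, to 7.75, 8.02 and 6.92 (3.61-fold, SE 0.30 log2, adjusted p = 0.000306). Cd6, a T cell surface receptor, rose at least 1.95-fold (adjusted p = 2.24e-05). In naive muscle none of these 4 genes was detected, and Prf1, the killer cell protein perforin, was not called (-0.49), but was without 2 dpi replicate 1 (-0.63, adjusted p = 0.00507).

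Markers of granulocytes and B cells were mostly not detected or not called. Of 9 eosinophil marker genes with a probe none was detected often enough to be tested, and 2 of 14 neutrophil genes were, neither of them called, although S100a8, a calcium-binding protein of neutrophils, was lower without 2 dpi replicate 1 (-1.19, adjusted p = 0.0362). Of 6 mast cell and basophil markers 2 fell, 1 without 2 dpi replicate 3 or 7 dpi replicate 3, 1 rose without 2 dpi replicate 1, and 2 had been above naive at 2 dpi. None of 5 B and plasma cell markers was called. Mesothelial markers (the serosal lining of the diaphragm) fell in 12 of 13 genes, with a median of -1.32, or -0.92 with genes undetected at one time set at their bound. They were a median of 1.12 above naive at 2 dpi and at -0.01 at 7 dpi. Krt8, a keratin, went from 7.99, 8.32 and 7.75 to 5.94, 6.16 and 6.02 (3.95-fold, SE 0.29 log2, adjusted p = 0.000156), with naive at 5.84 and 6.19. Upk1b and Slpi, a uroplakin and a secreted protease inhibitor, each fell 3.47-fold (adjusted p = 0.000261 and 0.000402).

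Endothelial markers were low at both times: 15 of 26 were below naive at 2 dpi and 14 at 7 dpi, with medians of -0.66 and -0.67. Over all genes 10.3% and 11.8% were below naive. Between the times 3 endothelial markers rose (11.5%) and 1 fell (3.85%), against 10.6% and 8.05% of all genes. The 1 became 0 without 2 dpi replicate 3 and 2 without 7 dpi replicate 1. Aplnr, the apelin receptor, regained part of its level, from 6.74, 6.57 and 6.72 to 7.47, 8.14 and 7.95 (2.26-fold, SE 0.24 log2, adjusted p = 0.00163), and remained 1.36 below naive (9.55 and 8.88). How far the make-up of the tissue moves the other genes described here was not tested.

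**Figure D3:**
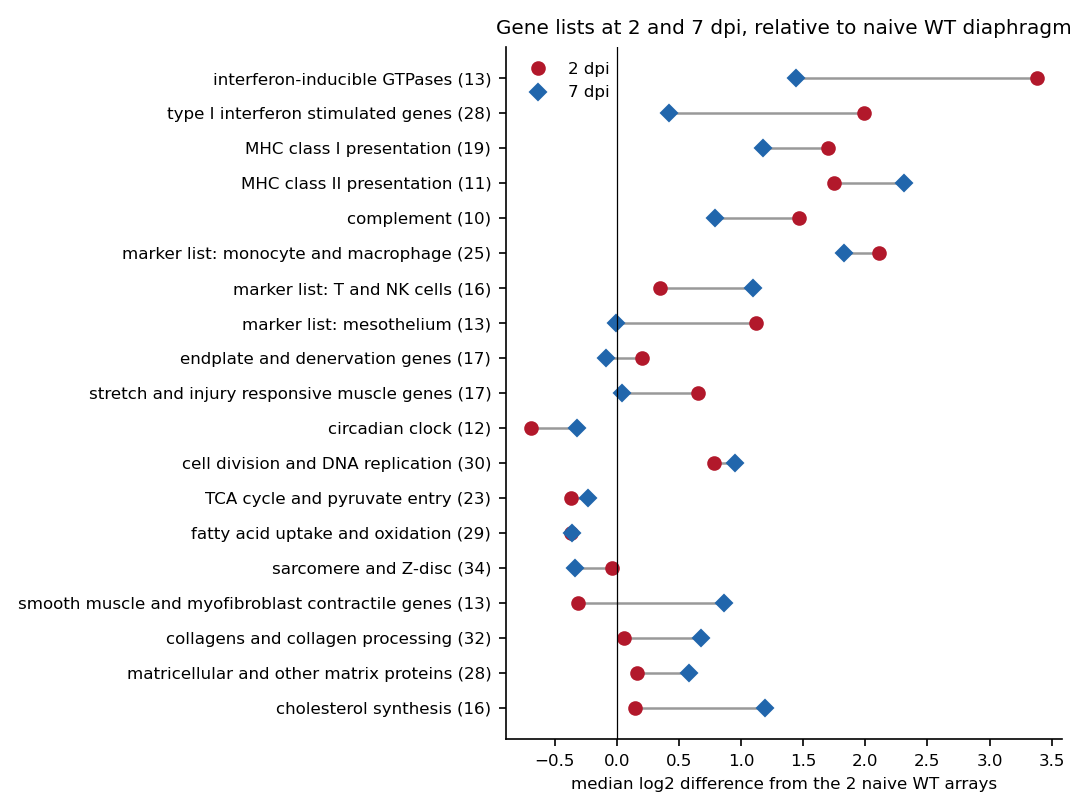
Median log2 difference from the 2 naive WT arrays (horizontal axis) for 19 gene and marker lists at 2 dpi (circles) and 7 dpi (diamonds), with the number of genes in parentheses. The interferon lists move left from 2 to 7 dpi, the mesothelial list is at -0.01 at 7 dpi, and the cholesterol, collagen and smooth muscle lists move right, to 1.19, 0.68 and 0.86.

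In the muscle fibre, genes of the neuromuscular endplate, which a fibre raises along its length when it loses its nerve, were mostly lower at 7 than at 2 dpi. Of 17 tested 9 fell and 1 rose (median -0.65). Chrng, the fetal gamma subunit of the acetylcholine receptor, was at 10.32, 10.48 and 10.39 at 2 dpi, at 7.92, 8.01 and 7.80 at 7 dpi, and undetected in naive muscle (4.87 and 5.01). It fell 5.61-fold (SE 0.16 log2, adjusted p = 9.84e-08) and was still 2.97 above naive. Chrna1, the alpha subunit, went from 10.78, 10.97 and 10.92 to 9.11, 9.46 and 9.04, which is 0.32 above naive (3.21-fold, SE 0.13 log2, adjusted p = 4.8e-07). Musk, the receptor kinase that organises the endplate, fell 2.48-fold (adjusted p = 0.000134) and Chrnb1, the beta subunit, 1.96-fold (adjusted p = 2.04e-05). Ncam1, a cell adhesion molecule, was the one that rose (1.54-fold, adjusted p = 0.0212), a call lost without 2 dpi replicate 1 or 2 or 7 dpi replicate 1 or 3, with adjusted p between 0.052 and 0.0766.

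The promoters of the subunit genes Chrng and Chrna1 are printed because their called changes were the largest of the list among genes with a promoter. Both carry the E-box CAGCTG, a core that myogenic factors such as myogenin are known to bind. Capitals mark it, and the 250 bases before the RefSeq start (GRCm38.p6) run 5′ to 3′ on the gene's strand. Chrng (chr1:87205561-87205810, + strand) has matches that start 155 and 132 bases before the gene start, and Chrna1 (chr2:73580339-73580588, - strand) at 92 and 44.
Chrng: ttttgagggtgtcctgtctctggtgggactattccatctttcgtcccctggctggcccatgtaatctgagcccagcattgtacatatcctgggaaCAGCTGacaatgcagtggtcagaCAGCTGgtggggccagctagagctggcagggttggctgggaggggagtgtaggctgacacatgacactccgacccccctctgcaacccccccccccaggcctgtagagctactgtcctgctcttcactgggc
Chrna1: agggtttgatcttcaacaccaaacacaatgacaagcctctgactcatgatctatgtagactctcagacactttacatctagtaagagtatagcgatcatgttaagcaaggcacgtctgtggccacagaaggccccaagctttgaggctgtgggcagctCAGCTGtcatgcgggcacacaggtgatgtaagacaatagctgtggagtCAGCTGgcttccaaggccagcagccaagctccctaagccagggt
Promoters were found for 12 of the 17 genes, and 6 of those 12 had a match, in 7 of 21 promoters (33.3%) against 12.3% for all genes tested. Of 11 promoters of myogenic regulator and satellite cell genes 0 had a match. The promoters of Tnc and Col4a2, picked by the same rule from the matrix lists described below, had none and are not printed.

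Myog, the gene of myogenin itself, had levels of 9.38, 9.50 and 9.47 at 2 dpi, 7.31, 7.97 and 7.49 at 7 dpi, and 6.61 and 6.65 in naive muscle. The groups did not overlap, and the fall was 3.62-fold (SE 0.15 log2, adjusted p = 8.95e-07). Genes that respond to stretch and injury of fibres fell in 8 of 17 cases and rose in 1 (median -0.56). Xirp1, an actin-binding protein of the repairing Z-disc, fell 3.59-fold from 9.65, 9.91 and 9.95 to 7.98, 8.11 and 7.88 (SE 0.14 log2, adjusted p = 4.01e-07), to 0.41 below naive. Mustn1, a small nuclear protein of growing muscle, fell 3.25-fold (SE 0.11 log2, adjusted p = 9.78e-08). Actn1, the non-muscle alpha-actinin, was the riser, at 3.22-fold (SE 0.13 log2, adjusted p = 6.59e-07).

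Some proteins of developing muscle rose late. Myh8, the perinatal myosin heavy chain, was at 7.27, 8.26 and 8 at 2 dpi and at 12.30, 12.26 and 12.39 at 7 dpi, with naive at 8.53 and 8.27. It showed the largest rise of all genes tested (22.2-fold, SE 0.25 log2, adjusted p = 1.94e-08). Actc1, cardiac actin, which fetal skeletal muscle also makes, first fell and then rose above its starting level: 12.35 and 11.25 in naive muscle, 10.16, 9.34 and 9.38 at 2 dpi, and 13.07, 12.83 and 12.95 at 7 dpi (10-fold between the times, SE 0.28 log2, adjusted p = 1.38e-06). Myl4, the embryonic light chain, was already high at 2 dpi and stayed so, at 12.88, 13.17 and 12.97 and then 12.87, 13.19 and 12.79 against 8.95 and 8.93 in naive muscle (change -0.06, adjusted p = 0.773). The members of this list thus followed separate courses: of 10 tested, 5 rose and 2 fell (median 0.51), the 2 becoming 1 without 2 dpi or 7 dpi replicate 3. Nes, the intermediate filament nestin, fell 2-fold (adjusted p = 0.000934) and Vim, vimentin, rose 1.78-fold (adjusted p = 0.000209).

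Of 34 sarcomere and Z-disc genes of adult fibres, 2 rose (5.88%) and 5 fell (14.7%), with a median of -0.16. The 5 became 3 without 2 dpi replicate 1, and the 2 became 1 without 2 dpi replicate 2 or 7 dpi replicate 3. Acta1, the adult skeletal actin, stayed between 15.63 and 15.70 on all 6 arrays. Whether signals this high were saturated was not tested. Myh4, the fast IIB myosin, fell 5.48-fold, with spread-out levels of 9.85, 8.66 and 7.96 at 2 dpi and 6.93, 5.5 and 6.68 at 7 dpi, detected on 2 of these 3 (SE 0.55 log2, adjusted p = 0.00315), and whether the probes of Myh4 and Myh8 tell the closely related myosin genes apart was not tested. Tpm1, a tropomyosin, rose 1.94-fold (adjusted p = 5.31e-05). Cacng1, the gamma subunit of the muscle calcium channel, fell 3.38-fold (SE 0.13 log2, adjusted p = 3.87e-07) back to 0.22 below naive. Among atrophy genes the ubiquitin ligase Fbxo32 fell 2.89-fold (adjusted p = 5.04e-05), to 1.02 below naive, and Ddit4, an inhibitor of mTORC1 signalling, rose 4.17-fold (SE 0.29 log2, adjusted p = 0.000116), detected on 1 array of 2 dpi.

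The largest rises of all included ion channel, cell surface and neuronal genes. Cacna1h, the T-type calcium channel Cav3.2, was at 6.07, 6.07 and 6.17 at 2 dpi and at 10.23, 9.80 and 10.15 at 7 dpi, against 7.31 and 6.91 in naive muscle (15.5-fold, SE 0.18 log2, adjusted p = 3.69e-09). Dner, a transmembrane Notch ligand of neurons, was detected on no naive or 2 dpi array and stood at 8.48, 8.38 and 8.48 at 7 dpi, a rise of at least 5.8-fold (adjusted p = 3.44e-10). Nt5e (CD73), which makes adenosine from AMP at the cell surface, rose 13.6-fold from 5.67, 5.4 and 5.96, detected on 1 of the 3 arrays, to 9.53, 9.38 and 9.43 (SE 0.21 log2, adjusted p = 2.53e-08). In each of these genes the 3 arrays of 7 dpi lay close together, far above the other 5 WT arrays.

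Chst8, a sulfotransferase of hormone glycans, and Slitrk5, a synaptic adhesion protein, were detected on no 2 dpi array and rose at least 9.14-fold and 5.53-fold (adjusted p = 3.6e-08 and 7.88e-09). Arc, an immediate early gene of active neurons, detected on 1 array of 2 dpi, rose 10.4-fold (SE 0.18 log2, adjusted p = 1.69e-08). Cadm1, a cell adhesion molecule, rose 7.14-fold, Adam23, a membrane protein of neurons detected on 1 array of 2 dpi, 6.97-fold, and Trnp1, a nuclear protein of neural progenitors, 6.90-fold (adjusted p = 1.94e-07, 3.78e-06 and 1.52e-08). Chst8, Cacna1h, Dner and Nt5e also stand in a list of 12 genes that earlier work on these arrays had singled out, of which 8 rose and 3 fell, so that count is no independent evidence.

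**Figure D4:**
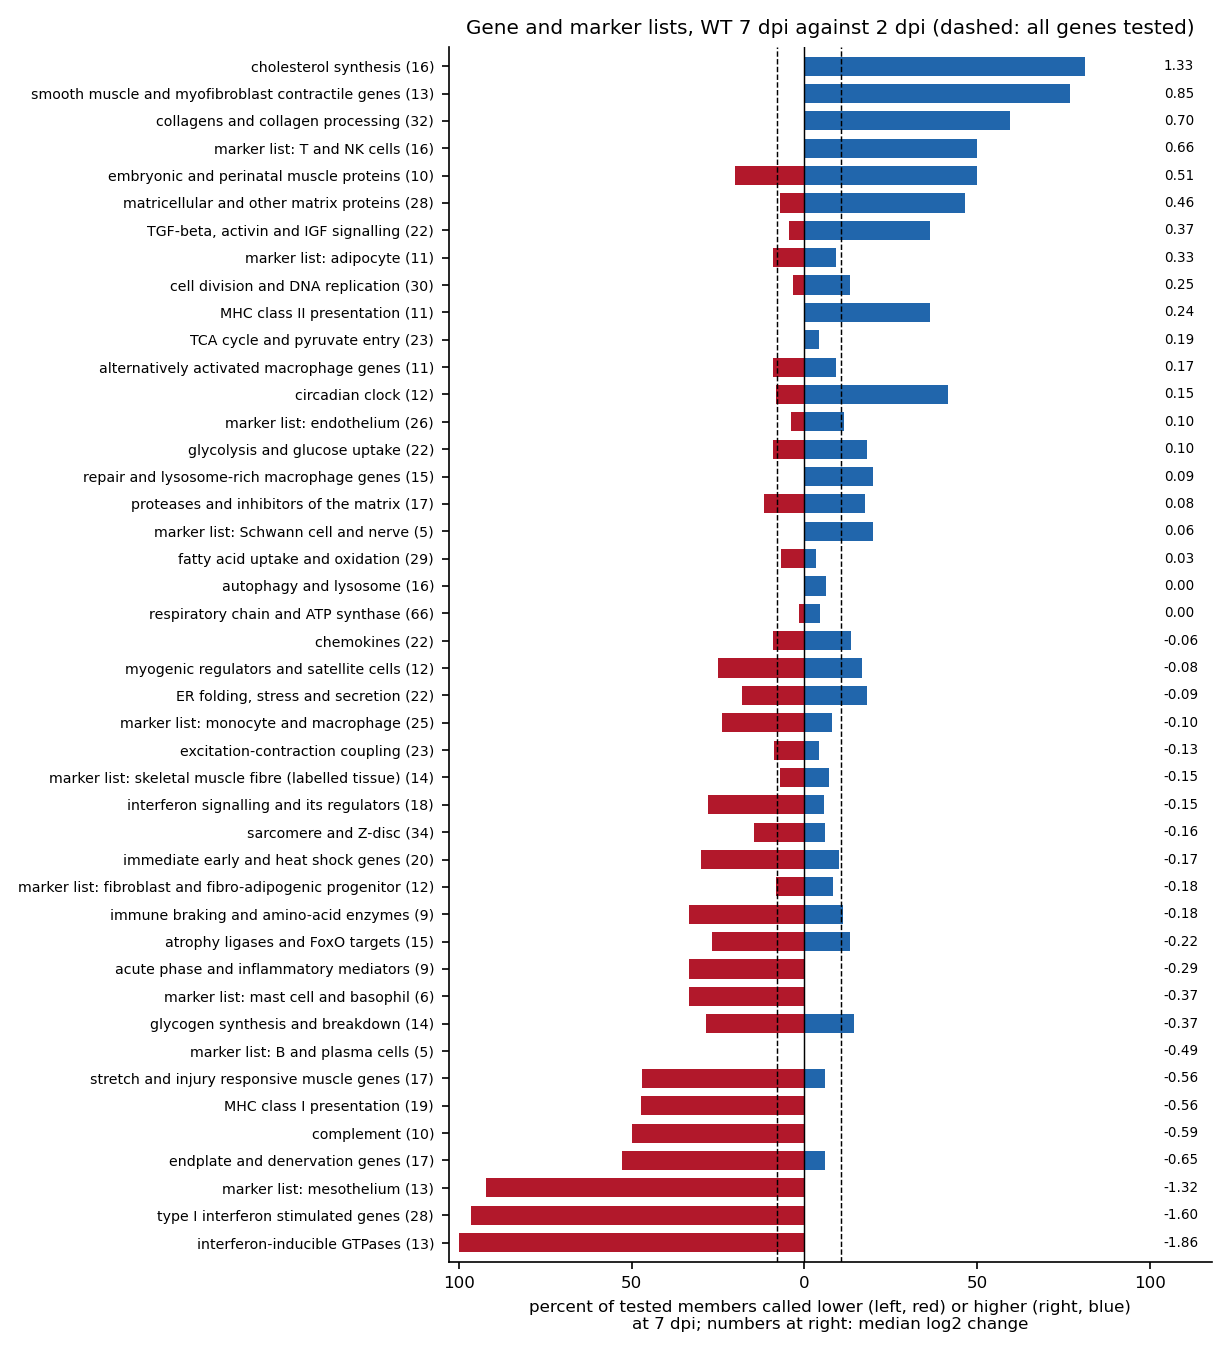
Percent of the members called, for lists with at least 5 tested genes other than the list from earlier work, lower (left, red) or higher (right, blue) at 7 dpi, with the median log2 change at right and dashed lines at the percentages of all genes tested, 8.05 and 10.6. The lists shown are sorted by median, with cholesterol synthesis at the top (1.33) and the GTPases at the bottom (-1.86).

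Connective tissue genes rose in number, first among them contractile proteins of smooth muscle and myofibroblasts, the contractile fibroblasts of healing tissue. Of 13 such genes 10 rose and none fell (median 0.85, or 0.74 at bounds), while at 2 dpi the median was -0.31 relative to naive. Acta2, smooth muscle alpha-actin, went from 9.45, 9.33 and 9.13 to 11.82, 12.02 and 11.81, with naive at 9.79 and 9.56 (5.98-fold, SE 0.12 log2, adjusted p = 3.69e-09). Actg2, the enteric gamma-actin, was detected on no naive or 2 dpi array and reached 9.22, 9.80 and 9.24, at least 11.4-fold (adjusted p = 1.85e-09). Tagln (transgelin) rose at least 3.84-fold (adjusted p = 1.39e-08) and Mylk, the kinase of smooth muscle myosin, 2.81-fold (SE 0.09 log2, adjusted p = 6.18e-08). Actins are close in sequence, and cross-hybridisation between Actc1, Acta2, Actg2 and their relatives was not tested.

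Of 32 collagens and collagen-processing enzymes 19 rose and none fell (median 0.70), and 14 to 19 rose with 1 array left out. Lox, which cross-links collagen, was already 1.10 above naive at 2 dpi and went on from 8.85, 8.96 and 8.61 to 10.77, 11.17 and 10.74 (4.25-fold, SE 0.14 log2, adjusted p = 9.84e-08). Col1a1, of fibrillar collagen I, was at 10, 9.63 and 9 at 2 dpi, around the naive 9.79 and 9.67, and at 11.02, 11.28 and 11.32 at 7 dpi (3.16-fold, SE 0.23 log2, adjusted p = 0.000104). The times did not overlap. Col4a2, of the basement membrane, fell by 0.99 relative to naive at 2 dpi and rose 2.96-fold after it (SE 0.14 log2, adjusted p = 1.86e-06), and its partner Col4a1 rose 2.72-fold (adjusted p = 1.1e-05). Plod2, a lysyl hydroxylase detected on 2 arrays of 2 dpi, rose 3.47-fold (adjusted p = 7.08e-06) and Col5a1 2.30-fold (adjusted p = 4.47e-05).

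Matricellular and other matrix proteins rose in 13 of 28 cases and fell in 2 (median 0.46). Tnc, tenascin C of wounded tissue, was undetected in naive muscle, at 8.26, 8.05 and 7.32 at 2 dpi and at 9.42, 10.12 and 9.54 at 7 dpi (3.51-fold, SE 0.29 log2, adjusted p = 0.000317). Ccn2, connective tissue growth factor and a target of YAP and TGF-beta signalling, rose 4.76-fold from 10.25, 10.35 and 10.48 to 12.80, 12.39 and 12.64 (SE 0.18 log2, adjusted p = 8.22e-07). Thbs1, thrombospondin 1, which activates latent TGF-beta, rose at least 2.23-fold (adjusted p = 2.64e-06) and Ccn5, a relative of Ccn2, 3.91-fold (SE 0.21 log2, adjusted p = 1.03e-05). Fbln1 and Fbln2, fibulins of the elastic matrix, fell 1.63-fold and 1.64-fold (adjusted p = 0.0012 and 0.00248).

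Among growth factors, 8 of 22 genes of TGF-beta, activin and IGF signalling rose and 1 fell (median 0.37). Tgfb1 itself was detected on no 2 dpi array and rose at least 1.76-fold (adjusted p = 0.00021). Igf2, a growth factor of development and regeneration, fell below naive at 2 dpi and rose 3.09-fold after it, from 10.05, 10.59 and 10.73 to 11.92, 12.31 and 12.02 (SE 0.17 log2, adjusted p = 6.37e-06). Igfbp2, which binds IGFs, was detected only at 7 dpi among the WT arrays, at 8.16, 8.13 and 7.65 (at least 4.19-fold, adjusted p = 4.8e-07). The matrix protease Mmp14, which sits in the membrane, rose 2.25-fold (SE 0.14 log2, adjusted p = 1.99e-05), whereas the secreted stromelysin Mmp3 was detected at 2 dpi only and fell at least 2.52-fold (adjusted p = 0.0011).

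Cholesterol synthesis gave the highest share of risers of all lists. Of its 16 genes tested 13 rose and none fell, under each left-out array as well, with a median of 1.33 (1.2 at bounds). Sqle, squalene epoxidase, a rate-limiting step of the sterol branch, was at 6.25 and 5.95 in naive muscle, 7.80, 7.73 and 7.06 at 2 dpi and 11.18, 11.15 and 11.09 at 7 dpi, so the 3 groups were clear of each other. It rose 12.2-fold (SE 0.20 log2, adjusted p = 2.53e-08). Cyp51, lanosterol demethylase, rose 5.04-fold (SE 0.15 log2, adjusted p = 8.2e-08), Msmo1, a methylsterol oxidase, 4.2-fold (SE 0.25 log2, adjusted p = 2.86e-05) and Hsd17b7, which follows in the same branch, 3.31-fold (SE 0.13 log2, adjusted p = 4.8e-07). The median of the list was 0.15 above naive at 2 dpi and 1.19 at 7 dpi, when 14 of the 16 genes were higher. Ebp and Pmvk were among the 3 not called (-0.32 and 0.44).

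Of 22 genes of glycolysis and glucose uptake 4 rose (18.2%) and 2 fell (9.09%), with a median of 0.10, and the 2 became 1 without 2 dpi replicate 1 or 2 and 0 without 2 dpi replicate 3 or 7 dpi replicate 1 or 3. Aldoc, the aldolase isoform of brain, was detected only at 7 dpi (7.80, 7.64 and 7.65) and rose at least 3.45-fold (adjusted p = 6.69e-07). Pfkp, the platelet isoform of phosphofructokinase, rose 3.32-fold from 7.80, 8.17 and 7.81 to 9.65, 9.65 and 9.68 (SE 0.15 log2, adjusted p = 1.38e-06). Pygb, brain glycogen phosphorylase, rose 2.92-fold (SE 0.17 log2, adjusted p = 1.18e-05), while the muscle form Pygm was not called (-0.15). Both belong to a list of 14 genes of glycogen synthesis and breakdown, of which 4 fell (28.6%) and 2 rose (median -0.37). The 4 became 2 without 2 dpi replicate 3, and the 2 became 1 without 2 dpi replicate 1 or 7 dpi replicate 2. Of 23 TCA cycle genes 1 rose, and 8 had been below naive at 2 dpi against 4 at 7 dpi. Respiratory chain genes numbered 66, of which 3 rose and 1 fell (median 0.00), and of 29 fatty acid oxidation genes 1 rose and 2 fell (median 0.03). The shares of these 3 mitochondrial lists lie below those of all genes. Single arrays moved these small counts, with 2 TCA cycle genes higher and 4 respiratory chain genes lower without 2 dpi replicate 1, and 4 respiratory chain genes lower and 0 fatty acid genes higher without 7 dpi replicate 3. Without 2 dpi replicate 2, 2 respiratory chain genes were lower and 0 fatty acid genes higher, without 2 dpi replicate 3, 0 fatty acid genes were higher, and without 7 dpi replicate 2, 5 respiratory chain and 2 fatty acid genes were higher. Ppargc1a, the coactivator PGC-1alpha of mitochondrial genes, fell 2.69-fold from 10.24, 9.92 and 9.99 to 8.38, 8.47 and 9.01 (SE 0.21 log2, adjusted p = 0.000132), back to 0.30 below naive.

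Cell division genes were up at both times. Of 30 tested, 19 were above naive at 2 dpi and 20 at 7 dpi, with medians of 0.78 and 0.95. Over all genes these shares were 13.1% and 16.3%. Between the times 4 rose (13.3%) and 1 fell (3.33%), against 10.6% and 8.05% of all genes (median 0.25). The 4 became 1 or 2 when 2 dpi replicates 1 or 2 or any 7 dpi array was left out. Cenpa, the centromere histone, was called with each array left out (1.62-fold, SE 0.10 log2, adjusted p = 0.000146). Mcm7, of the replication helicase, fell 1.88-fold, from 6.43, 6.99 and 6.69 to 5.78, 5.84 and 5.76, detected on 2 of these 3 (SE 0.15 log2, adjusted p = 0.000317).

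Clock genes moved as well. Of 12 tested, 6 were below naive at 2 dpi and 2 above it, against 10.3% and 13.1% of all genes. From 2 to 7 dpi 5 rose (41.7%) and 1 fell (8.33%), against 10.6% and 8.05% of all genes. The change was positive in 6 and negative in 6 (median 0.15). The faller was Tef, whose direction turned without 7 dpi replicate 3 (0.33) and in several other settings given in the last section. In those settings the probe standing for a gene was chosen anew, so another Tef probe may have stood there. Per1, a repressor in the clock's feedback loop, was at 8.41 and 8.32 in naive muscle, 6.83, 6.66 and 6.62 at 2 dpi and 8.23, 7.6 and 8.1 at 7 dpi (2.41-fold, SE 0.16 log2, adjusted p = 3.37e-05). Its relative Per2 rose 1.84-fold (SE 0.17 log2, adjusted p = 0.0013) and Ciart, another repressor of the loop, 2.41-fold (SE 0.31 log2, adjusted p = 0.00545). Such genes follow the hour, and the hour of collection and the time after injection cannot be told apart here.

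Of 22 folding and secretion genes of the endoplasmic reticulum, 4 were higher and 4 lower (18.2% each, against 10.6% and 8.05% of all genes). The 4 lower became 2 without 2 dpi replicate 1 or 2 and 1 without 7 dpi replicate 1 or 3. Nupr1, a stress-induced chromatin protein, rose 2.32-fold (SE 0.12 log2, adjusted p = 3.61e-06) and Pdia5, a disulfide isomerase, 2.30-fold (SE 0.13 log2, adjusted p = 8.08e-06). The heat shock gene Hsph1 fell 2.19-fold, from 11.75, 11.81 and 11.73 to 10.67, 10.62 and 10.61, which is 0.04 below naive (SE 0.09 log2, adjusted p = 1.06e-06).

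The PHIL mice give the same contrast on separate arrays. Eif2s3y was detected on no PHIL array of 2 dpi and on replicates 1 and 3 of 7 dpi, so sex was not balanced over the times there. PHIL muscle had 884 genes called higher (10.7%) and 787 lower (9.57%) at 7 against 2 dpi. Of the 1536 genes called in WT, 1526 (99.3%) changed in the same direction in PHIL, 1083 (70.5%) were called there the same way and 0 the opposite way, and those 1083 are 64.8% of the 1671 PHIL calls. Genes that rose in WT had a median change of 0.89 in WT and 0.83 in PHIL, and genes that fell -0.80 and -0.74. The change itself differed between the genotypes in 0 of 8226 genes by limma (0%), with 550 at an unadjusted p under 0.05 and a smallest adjusted p of 0.625. Across all genes the 2 changes correlated at 0.89, a description over 8226 genes that are not independent and share normalisation.

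For the groups described above, the PHIL medians were -1.40 for the GTPases, of which 12 of 13 fell (median of the WT minus PHIL differences -0.65), -1.37 for the type I genes, 0.90 for cholesterol synthesis and 0.47 for collagens. Igtp changed by -1.40 in PHIL against -2.45 in WT, Gsta1 by -4.78 against -5.14, Myh8 by 4.27 against 4.47 and Sqle by 3.24 against 3.60. None of these differences passed the test, which with 3 arrays a group does not show that the genotypes acted alike.

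**Figure D5:**
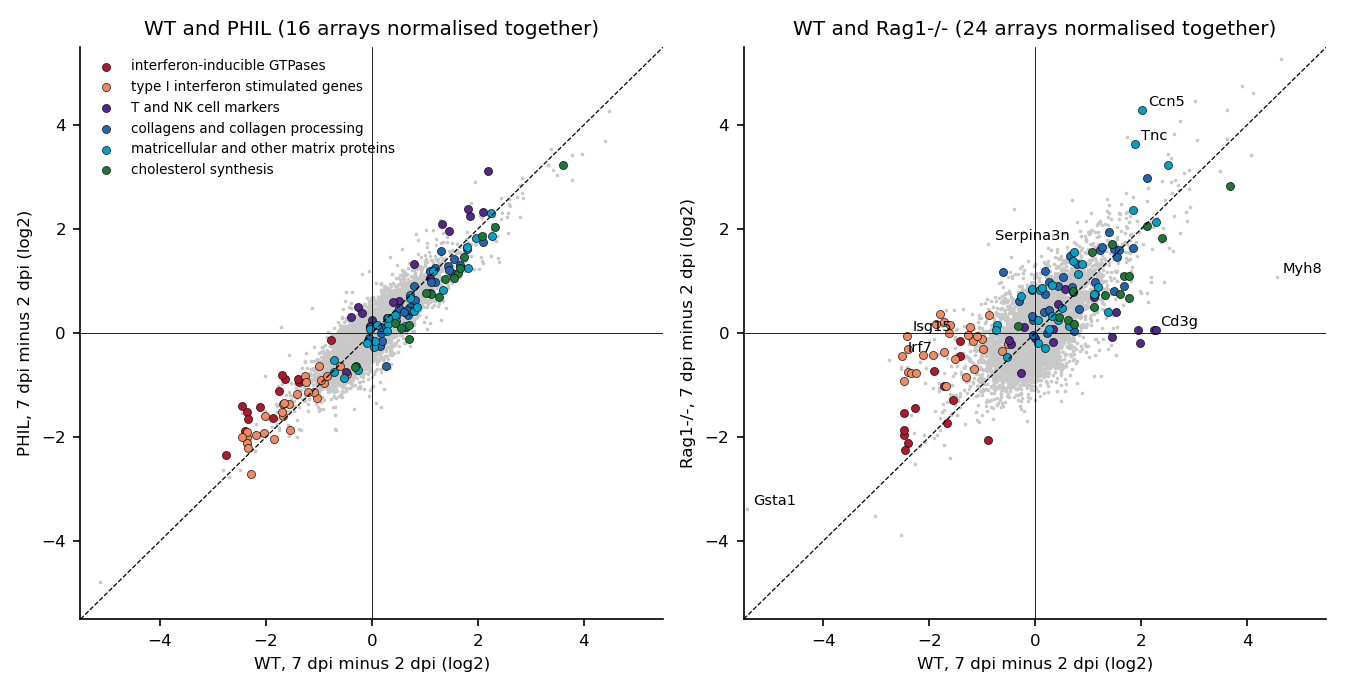
Change from 2 to 7 dpi (log2) in PHIL (left, vertical axis) and Rag1-/- (right, vertical axis) against the change in WT (horizontal axes), 1 point per gene, members of 6 lists in colour, dashed line at equal change. Points lie along the line for PHIL (r = 0.89), and for Rag1-/- (r = 0.68) the type I interferon stimulated genes have a median of -0.31 and the T and NK cell markers of 0.06 on the vertical axis.

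In Rag1-/- muscle the changes correlated with those of WT at 0.68 across genes, and 90.6% of the WT calls had the same direction. The change differed from WT in 580 of 8987 genes (6.45%), normalised over all 24 arrays. That count was 326, 366 and 330 without WT 2 dpi replicate 2, WT 7 dpi replicate 1 and WT 7 dpi replicate 3. The Rag1-/- arrays had median raw signals of 295.1 to 333.4 against 112.5 to 131.5 on these WT arrays. Eif2s3y was detected on every Rag1-/- array but not on every WT array. Thus genotype, breeding, sex and signal level of the arrays cannot be told apart in this comparison. Among type I interferon stimulated genes 18 of 28 differed, with a Rag1-/- median of -0.31. Among the GTPases none of 13 did, with a Rag1-/- median of -1.54. Of the T and NK cell markers 5 of 16 differed, with a Rag1-/- median of 0.06.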

How the data were processed

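RNA of each diaphragm was biotin labelled and hybridised to an Illumina MouseRef-8 v2.0 array. The authors deposited a non-normalised table with, for each probe and array, a signal intensity and a detection p-value from GenomeStudio. The deposited series table holds intensity values normalised by the authors (lumi, robust spline), used as an alternative. From the signals of the 16 WT and PHIL arrays, neqc (normexp background correction with detection p-values, offset 16, quantile normalisation, log2) was run in limma 3.58.1. Probes with a detection p under 0.01 on at least 2 of 16 arrays were kept (10708 of 25697), and the probe with the highest interquartile range stood for each gene, giving 8226 genes. A linear model of 6 groups (3, 3 and 2 arrays of each genotype) was fitted with lmFit and eBayes, with Benjamini-Hochberg adjustment over all genes. Rag1-/- was compared in a fit of all 24 arrays. The fit was tested on simulated data. Alternatives covered offset, background correction, scaling, probe choice, samples fitted, threshold and left-out arrays. Promoters came from RefSeq (GRCm38.p6), matched by symbol. The text names genes from the 15 largest changes called in each direction, from up to 4 called members each way and 2 uncalled members of highest level in each list, from the 5 largest called differences between genotypes, and from genes the study names for these arrays, and says where a gene falls outside this rule. Members and lists were chosen with earlier results of these data known. Near-identical genes may share probe signal. The number of arrays limits the precision.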

Additional observations from a re-analysis of the deposited data

Results flagged for a closer look

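In 5 named genes the change from 2 to 7 dpi differed between WT and Rag1-/- muscle by the interaction term of the limma fit over 24 arrays. The difference (WT minus Rag1-/-, log2) was 3.48 for the perinatal myosin Myh8 (4.56 in WT, 1.08 in Rag1-/-, SE 0.41, adjusted p = 0.000159), higher at 7 dpi in both. The paper lists Myh8 among the genes most raised over naive in Rag1-/- muscle at 2 dpi as well as at 7 dpi. In WT every 2 dpi level of Myh8 lay below the naive levels, so a smaller change from 2 dpi is not a smaller rise over naive. The difference was -2.59 for Serpina3n, an acute phase protease inhibitor (-0.88 and 1.71, SE 0.41, adjusted p = 0.00125), whose directions were opposite. In the limma fit of WT and PHIL arrays its WT fall lost its call without 2 dpi replicate 2 or 3 or any 7 dpi array (adjusted p 0.0601 to 0.145). For Isg15 the difference was -2.37 (-2.42 and -0.05, SE 0.37, adjusted p = 0.00124) and for the matricellular gene Ccn5 -2.27 (2.02 and 4.29, SE 0.34, adjusted p = 0.000799). For Cd8b1, of cytotoxic T cells, which Rag1-/- mice lack, it was 2.24 (2.29 and 0.05, SE 0.40, adjusted p = 0.00293). Genotype, breeding, sex and signal level of the arrays cannot be told apart in these differences.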

How the results depend on the processing

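The 1536 calls (874 higher, 662 lower) became 910 (557 and 353) with an offset of 50, 753 (461 and 292) with no background correction, 741 (456 and 285) with the authors' values, of which 736 were shared, and 530 (344 and 186) or 533 (347 and 186) with a 2-fold threshold on adjusted or unadjusted p. Leaving out 1 array gave 1377 to 1624 calls, 800 to 879 higher and 577 to 755 lower. Replicate numbers did not pair the samples (correlations of 0.037, 0.147 and -0.055), and a replicate block gave 1521 calls (868 and 653), 1517 of them shared. The WT and PHIL difference gave 0 to 0 calls with an array left out and 16 with unadjusted p and 2-fold. The WT and Rag1-/- difference gave 326 to 832 with an array left out and 472 with the authors' values. Directions turned for Stat3 (0.72 with median scaling, 0.59 with only the 6 infected WT arrays and 0.59 with only the 8 WT arrays, a setting chosen after seeing the data), Tpm3 (0.22 with no background correction, 0.42 with median scaling, 0.22 with the authors' values, 0.29 with the brightest probe), Asph (-0.19 with an offset of 50, no correction, the authors' values and the brightest probe) and Tef (0.33, 0.32, 0.32 and 0.35 in the same order, 0.35 with 24 arrays and -0.86 to 0.33 with an array left out, positive only without WT 7 dpi replicate 3). The probe standing for a gene was chosen anew in these settings, so a turn can be a change of probe. With every probe fitted and the main probe followed, 0 of the called named genes turned. Of 398 called genes with several kept probes, 27 had probes that differed in sign. Whether a change of probe accounts for each turn was not tested. Of 197 named genes called, 132 kept their call in every alternative other than the 2-fold thresholds. Signal over background limits the genes detected at 1 time only.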
